A study of Homo sapiens with 4 samples.

Results

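The genes of homologous recombination, the Fanconi anaemia pathway, mismatch repair and DNA damage signalling were examined in A549 cells, an established line from a human lung adenocarcinoma. The 33 genes were chosen by symbol, with earlier results of these data known, so their counts below describe a chosen list. All 33 were found among the 26255 symbols of the data. All 33 passed the required mean of at least 1 FPKM over the libraries, as did 12663 genes in all. FPKM is the number of sequenced fragments per kilobase of transcript, scaled to 1000000 fragments of the library. The cells had been grown for 5 days in medium with 5% serum in 4 ways, each represented by 1 library: on solidified Matrigel at 1% oxygen (3D hypoxia), on Matrigel in normoxia (3D normoxia), on a culture dish at 1% oxygen (2D hypoxia) and on a dish in normoxia (2D normoxia). Matrigel is a gelled basement membrane extract, and the study asked what marks the micropapillary-like structures formed on it under hypoxia. The labels give the genotype as WT in all 4 groups, and with a single line in use nothing here extends beyond it.

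The 33 genes act on broken, crosslinked or mispaired DNA. Homologous recombination cuts back the ends of a double-strand break so that the exposed strand can invade a sister copy and use it as template, with BRCA1 and BRCA2 as mediators. The Fanconi pathway unhooks crosslinks between the strands and hands the break to recombination, while mismatch repair removes base pairs that replication got wrong. ATM and ATR are the kinases that signal the damage, and CHEK2 and CHEK1 are their effector kinases. Many of these genes are transcribed mainly in S phase under E2F control, and lower expression of recombination and mismatch repair genes has been described in hypoxic cancer cells.

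As a check of the labels, the 8 hypoxia genes examined rose in hypoxia by limma, a linear model fitted over all genes, with CA9, a carbonic anhydrase, at 199.7 FPKM in 3D hypoxia, 4.05 in 3D normoxia, 138.5 in 2D hypoxia and 3.999 in 2D normoxia. The keratins KRT8 and KRT18 lay between 1721 and 3731 FPKM in the 4 libraries, whereas the epithelial marker EPCAM lay between 1.43 and 2.73 FPKM. The endothelial markers summed to between 0.172 and 0.457 FPKM per library, and CD3E, a T cell marker, was listed at 0 in all 4. Blood markers summed to 41.0 FPKM in 3D hypoxia, 43.8 in 3D normoxia, 16.7 in 2D hypoxia and 31.3 in 2D normoxia, most of it from CD68 and CD14. Fibroblast markers summed to 0.781 FPKM in 3D hypoxia, 0.870 in 3D normoxia, 14.3 in 2D hypoxia and 2.76 in 2D normoxia, mostly from COL1A1, and the part of these lists in the results was not tested. Depth was inferred from the value of 1 fragment and came to about 11300000 fragments in 3D hypoxia, 11800000 in 3D normoxia, 38800000 in 2D hypoxia and 24400000 in 2D normoxia. The 33 genes therefore rested on an estimated 66 to 2151 fragments each in 3D hypoxia and 393 to 9100 in 2D normoxia. Counting errors quoted below cover this sampling only, because no group had a second library.

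The libraries lay in a common order for most of these genes. For 30 of the 33, both 3D libraries stood below both 2D libraries, a pattern shown by 30.1% of all 12663 genes. The exceptions were MSH3, NBN and CHEK2. The lowest of the 4 values was in 3D hypoxia for 28 genes (28.6% of all genes) and the highest was in 2D normoxia for 24 (26.4% of all genes). For 22 genes the levels stepped down through all 4 libraries, highest in 2D normoxia, then 2D hypoxia, then 3D normoxia, and lowest in 3D hypoxia, against 11.1% of all genes. Both hypoxia libraries stood below both normoxia libraries for only 2 genes, MSH3 and CHEK2 (17.5% of all genes). Summed over the 33 genes, FPKM came to 252.4 in 3D hypoxia, 316.6 in 3D normoxia, 417.2 in 2D hypoxia and 491.4 in 2D normoxia.

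**Figure D1:**
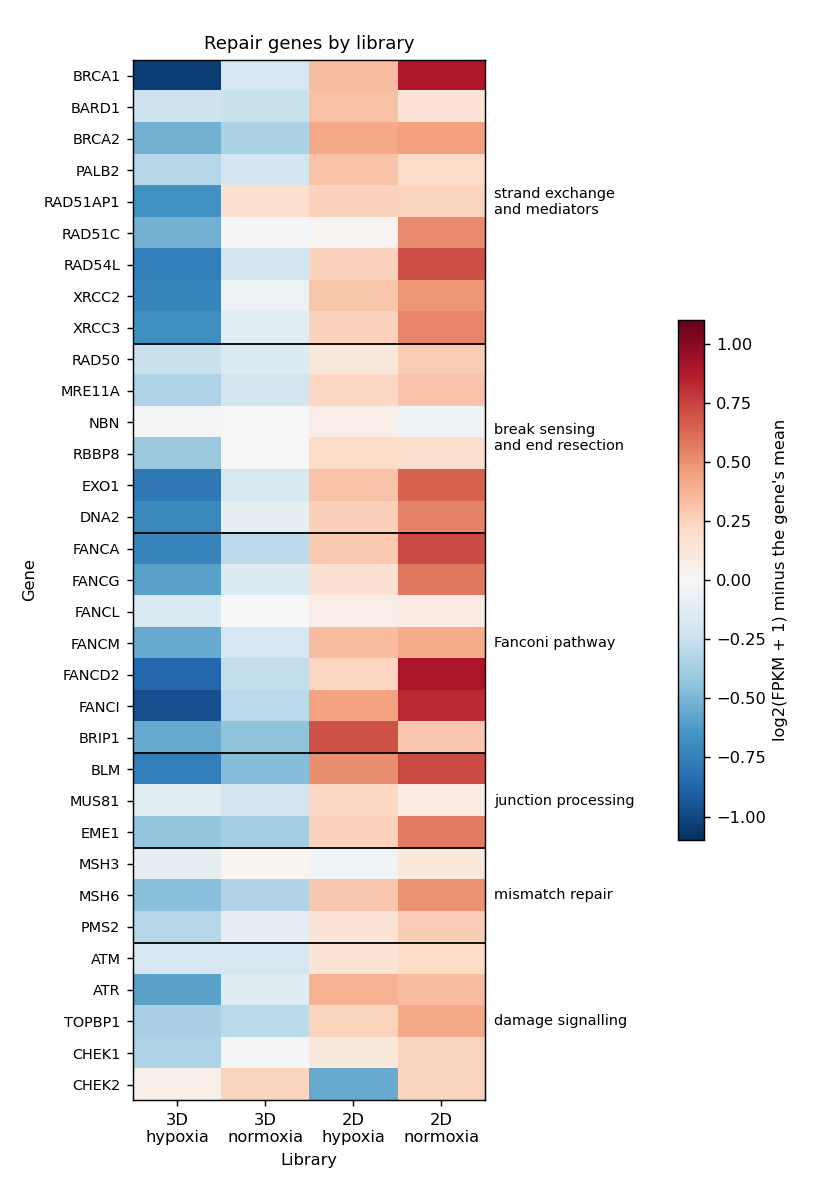
Colour gives log2(FPKM + 1) minus the gene's own mean over the 4 libraries, with a row per gene, a column per library and the genes grouped by role. Most rows are blue in the 3D columns and red in the 2D columns, with the deepest blue in 3D hypoxia, while the rows of NBN, MSH3 and FANCL are pale.

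The first comparison asked whether expression differed between Matrigel and dish, averaged over both oxygen levels. Of the 33 genes, 21 fell and 0 rose in 3D against 2D (limma, Benjamini-Hochberg adjusted p under 0.05 over all genes), where 11.6% of all genes tested were called lower and 10.4% higher. At an unadjusted p under 0.05, 28 of the 33 were lower (21.5% of all genes). Because the 33 were chosen with earlier results of these data known, these counts describe that list only. The median log2 difference of the 33 genes was -0.72, and that of all genes was -0.03. Strand exchange genes had 7 of 9 fall, Fanconi genes 6 of 7, end resection genes 3 of 6, junction-processing genes 2 of 3, damage-signalling genes 2 of 5 and mismatch repair genes 1 of 3. Depth moved with culture as well, since both 3D libraries were shallower than both 2D libraries, and its part in the result was not tested. The fit has 1 residual degree of freedom, which is the difference between the cultures in the hypoxia ratio. A p-value here thus sets an average difference against that departure, tempered by the spread of other genes, and not against replicate spread. A gene whose hypoxia ratio differs between the cultures so has a larger standard error, as RAD51AP1 does at 0.21. Nothing in the labels says that the libraries came from separate experiments, so any spread among the 4 may be technical. Without the filter on low values 0 of the 33 passed, with 26 lower at an unadjusted p under 0.05, and the smallest adjusted p among them was 0.0547.

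**Figure D2:**
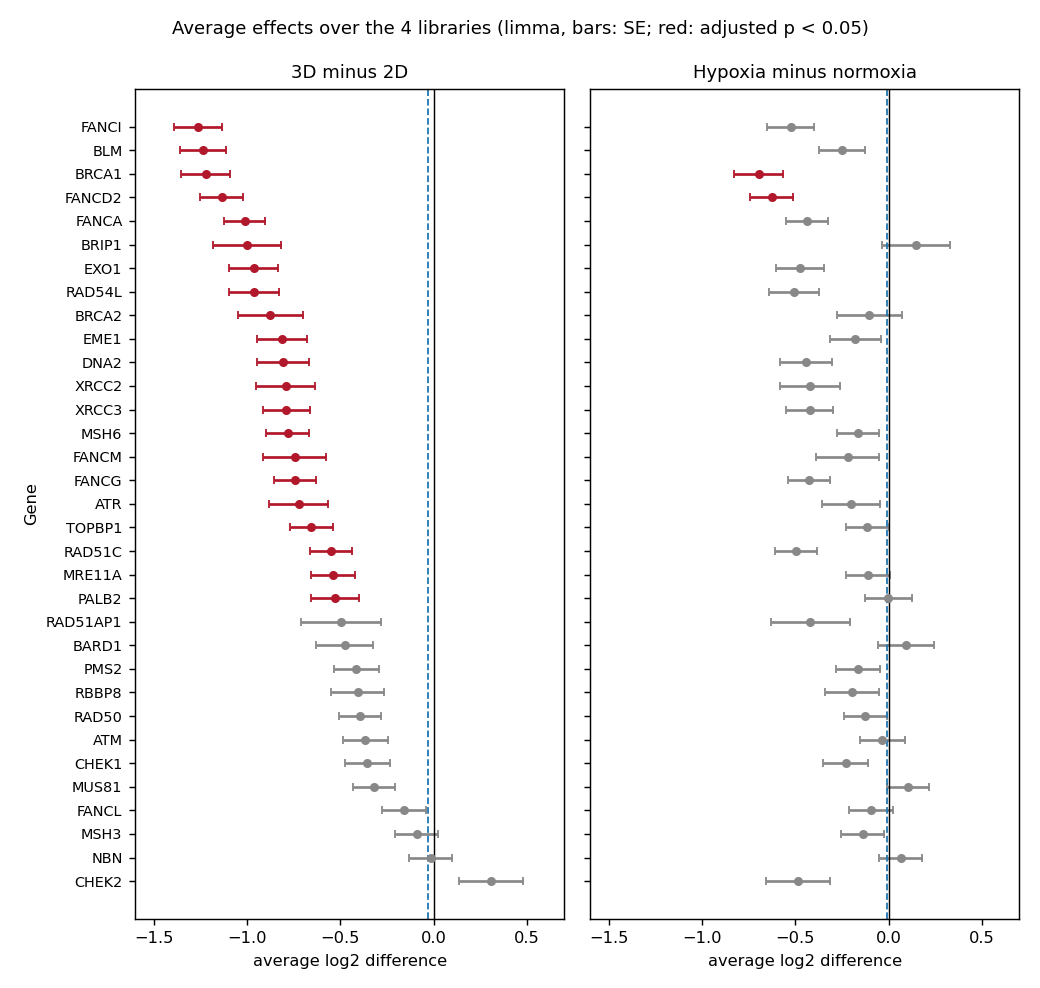
Points give the average log2 difference of each gene, 3D minus 2D on the left and hypoxia minus normoxia on the right, with the limma standard error as bars, red where the adjusted p is under 0.05 and a dashed line at the median of all genes. On the left, 21 genes are red and lie between -1.26 and -0.53, and on the right only BRCA1 and FANCD2 are red.

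The promoters of the genes were then searched for short motifs, since many of the genes moved together. RefSeq promoter sequences of build GRCh38.p14, 250 bases before to 50 bases after each gene's start, were matched for 30 of the 33 genes, not for FANCI, NBN and DNA2. The E2F-type motifs searched were TTTCCCGC, TTTGGCGC, TTTCGCGC and TTTGCCGC on both strands, and 8 of the 30 promoters held a match, 26.7%, against 3.33% of 27305 promoters. Of the 19 matched genes that fell in 3D 6 held it, and of the 11 others 2 did. The 27305 promoters were not restricted by expression, whereas the genes examined had all passed the filter on low values. The background share is thus not like for like, and a share among expressed genes alone was not tested. FANCD2, which fell with both culture and hypoxia, is shown whole because it alone met the rule for printing, a place among the 4 lowest culture differences and an E2F-type match. Its promoter spans chr3:10026187-10026486 on the plus strand, with the match in capitals across the start site.
FANCD2: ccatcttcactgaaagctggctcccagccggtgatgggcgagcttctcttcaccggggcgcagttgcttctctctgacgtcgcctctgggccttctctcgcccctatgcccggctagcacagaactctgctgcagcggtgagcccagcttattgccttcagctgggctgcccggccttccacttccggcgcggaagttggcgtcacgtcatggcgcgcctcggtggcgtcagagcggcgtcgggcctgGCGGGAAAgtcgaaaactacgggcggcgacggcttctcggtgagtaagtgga
In the 7 other promoters the match is shown in capitals within 30 bases, chosen after the values were seen, to compare its setting.
EXO1: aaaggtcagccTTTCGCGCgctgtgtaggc
MSH6: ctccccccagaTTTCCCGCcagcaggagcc
XRCC2: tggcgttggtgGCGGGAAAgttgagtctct
TOPBP1: ccgcgcggttgGCGCGAAAgtcggttcccg
FANCA: actacaccgcgGCGGCAAAgccaaacgcaa
PMS2: cgggaagtattTTTGCCGCcccgcccggaa
MSH3: ggtcaagtttgGCGCGAAAttgtggccgcc
These stretches lie at chr1:241848197-241848226 (EXO1) and chr2:47783137-47783166 (MSH6) on the plus strand, chr7:152676102-152676131 (XRCC2), chr3:133661930-133661959 (TOPBP1), chr16:89816801-89816830 (FANCA) and chr7:6009131-6009160 (PMS2) on the minus strand, and chr5:80654538-80654567 (MSH3) on the plus strand, each written 5′ to 3′ on the gene's own strand. In EXO1, MSH6 and XRCC2 the match begins at base 5, 4 and 22 of the transcript, in TOPBP1 7 bases before the start, and in FANCA 172 bases before it. PMS2 and MSH3, the only 2 of the 8 that did not pass for culture, hold it 43 and 103 bases before the start, and the 2 matches of MSH3, TTTGGCGC and the reverse complement of TTTCGCGC, overlap.

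The other motifs were less set apart. CCAAT was found in 15 of 30 promoters, against 35.7% of all promoters, and the cell cycle motifs TTTGAA or TTCGAA in 2, 6.67%, against 16.6%. The hypoxia response core ACGTG was found in 7 of the 30, 23.3%, against 21.6% of all promoters, among them FANCD2 and not BRCA1. The shares of all promoters given for these motifs were likewise not restricted by expression. A match describes letters in this window and shows neither binding nor a cause of the values.

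Strand exchange and its mediators were led by BRCA1, a ubiquitin ligase that directs breaks to recombination. BRCA1 was at 4.13 FPKM in 3D hypoxia, 8.27 in 3D normoxia, 12.3 in 2D hypoxia and 18.4 in 2D normoxia, so that no 3D value reached a 2D value. It fell in 3D by 1.22 ± 0.13 on the log2 scale (SE, limma adjusted p = 0.00897). BARD1, the partner with which BRCA1 forms its ligase, was at 2.00 FPKM in 3D hypoxia, 1.97 in 3D normoxia, 3.42 in 2D hypoxia and 2.92 in 2D normoxia, and its culture difference did not pass (-0.48 ± 0.15, adjusted p = 0.0718). The FPKM of BRCA1 was thus 2.06 times that of BARD1 in 3D hypoxia, 4.19 times in 3D normoxia, 3.61 times in 2D hypoxia and 6.29 times in 2D normoxia, an unequal difference of the partners across the libraries.

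BRCA2, a mediator of strand exchange, was the lowest of the 33 genes at 0.664 FPKM in 3D hypoxia, 0.875 in 3D normoxia, 2.203 in 2D hypoxia and 2.28 in 2D normoxia. It fell in 3D by 0.88 ± 0.18 on the log2 scale (adjusted p = 0.0256). Because 1 was added to each value, this understates the difference of so low a gene. PALB2, which bridges BRCA1 and BRCA2, was at 4.42 FPKM in 3D hypoxia, 4.83 in 3D normoxia, 7.41 in 2D hypoxia and 6.82 in 2D normoxia (-0.53 ± 0.13, adjusted p = 0.0393), and its call was lost when libraries were scaled to a common median (adjusted p = 0.0527) or when a mean of 5 FPKM was required (adjusted p = 0.0564). RAD54L, a motor protein that helps the strand invade the template, was at 1.88 FPKM in 3D hypoxia, 3.23 in 3D normoxia, 4.81 in 2D hypoxia and 6.98 in 2D normoxia. RAD54L thus had its values in the common order, with 66 estimated fragments in 3D hypoxia, the fewest of any of the 33 genes, and fell in 3D (-0.96 ± 0.13, adjusted p = 0.0125).

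RAD51C, XRCC2 and XRCC3, which assist strand exchange, all fell in 3D. RAD51C was at 12.7 FPKM in 3D hypoxia, 18.5 in 3D normoxia, 19.3 in 2D hypoxia and 27.4 in 2D normoxia (-0.55 ± 0.11, adjusted p = 0.0264). XRCC2 was at 2.43 FPKM in 3D hypoxia, 4.41 in 3D normoxia, 6.01 in 2D hypoxia and 6.97 in 2D normoxia (-0.79 ± 0.16, adjusted p = 0.026). XRCC3 was at 8.51 FPKM in 3D hypoxia, 13.01 in 3D normoxia, 17.1 in 2D hypoxia and 21.03 in 2D normoxia (-0.79 ± 0.13, adjusted p = 0.0165). RAD51C stood lower in hypoxia by about the same log2 ratio in both cultures, -0.51 in 3D and -0.48 in 2D. XRCC3 shares 45.3% of its exonic bases with KLC1 in the annotation, and with no strand setting of the counting known from the labels or notes, its value is uncertain.

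RAD51AP1, which promotes strand invasion, departed from the order of its group. It was at 4.10 FPKM in 3D hypoxia, 8.15 in 3D normoxia, 8.65 in 2D hypoxia and 8.63 in 2D normoxia, so that 3D hypoxia alone stood apart. The log2 ratio of 3D to 2D was -0.92 in hypoxia, with a counting error of 0.13, and -0.07 in normoxia, with an error of 0.11. Its average culture difference did not pass (-0.50 ± 0.21, limma adjusted p = 0.14).

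The genes that sense breaks and cut back their ends differed among themselves. EXO1, a nuclease of long-range resection that also serves mismatch repair, was at 4.04 FPKM in 3D hypoxia, 6.70 in 3D normoxia, 9.84 in 2D hypoxia and 12.7 in 2D normoxia, and fell in 3D by 0.97 ± 0.13 on the log2 scale (adjusted p = 0.012). DNA2, the other long-range nuclease, was at 3.23 FPKM in 3D hypoxia, 5.45 in 3D normoxia, 7.29 in 2D hypoxia and 9.06 in 2D normoxia (-0.81 ± 0.14, adjusted p = 0.0191). Both thus had the 2 lowest values in 3D. RBBP8, which starts resection and is also called CtIP, was at 8.12 FPKM in 3D hypoxia, 11.1 in 3D normoxia, 13.0 in 2D hypoxia and 12.9 in 2D normoxia and did not pass (-0.41 ± 0.14, adjusted p = 0.0909).

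RAD50, MRE11A and NBN form the complex that binds broken ends. NBN was at 17.6 FPKM in 3D hypoxia, 17.7 in 3D normoxia, 18.7 in 2D hypoxia and 16.98 in 2D normoxia, the narrowest range of the 33 genes on the log2 scale, with a culture difference of -0.02 ± 0.12 (adjusted p = 0.926). MRE11A, its nuclease, was at 5.08 FPKM in 3D hypoxia, 5.65 in 3D normoxia, 7.97 in 2D hypoxia and 8.56 in 2D normoxia and fell in 3D by 0.54 ± 0.12 on the log2 scale (adjusted p = 0.0306). RAD50, at 19.2 FPKM in 3D hypoxia, 20.5 in 3D normoxia, 24.9 in 2D hypoxia and 27.9 in 2D normoxia, did not pass (-0.39 ± 0.11, adjusted p = 0.0579). The FPKM of NBN relative to RAD50 was 0.916 in 3D hypoxia, 0.863 in 3D normoxia, 0.753 in 2D hypoxia and 0.608 in 2D normoxia. Exons of 2 other annotated genes, AC116366.3 and TH2LCRR, together overlap 90.6% of the exonic bases of RAD50, so its value is uncertain.

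The Fanconi genes held the 2 members of the ID complex, FANCI and FANCD2, which are monoubiquitinated at crosslinks and clamp onto the DNA. FANCI was at 13.5 FPKM in 3D hypoxia, 22.1 in 3D normoxia, 37.5 in 2D hypoxia and 49.1 in 2D normoxia, the lowest culture difference of the 33 genes (-1.26 ± 0.13, limma adjusted p = 0.00856). FANCD2, the gene with the E2F-type match across its start site, was at 4.30 FPKM in 3D hypoxia, 6.99 in 3D normoxia, 10.4 in 2D hypoxia and 17.0003 in 2D normoxia and fell in 3D by 1.14 ± 0.12 on the log2 scale (adjusted p = 0.00856). The FPKM of FANCD2 relative to FANCI stayed between 0.277 and 0.346 over the 4 libraries, so the partners kept a similar ratio where BRCA1 and BARD1 did not. FANCD2 has pseudogene copies that can share its reads, and its value is uncertain to that extent.

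Of the core complex that ubiquitinates FANCI and FANCD2, the scaffold gene FANCA was at 6.71 FPKM in 3D hypoxia, 9.46 in 3D normoxia, 14.6 in 2D hypoxia and 20.0 in 2D normoxia (-1.01 ± 0.11, adjusted p = 0.00928). FANCG, another subunit, was at 10.6 FPKM in 3D hypoxia, 14.7 in 3D normoxia, 18.6 in 2D hypoxia and 25.2 in 2D normoxia and also fell in 3D. FANCM, the translocase that anchors the complex on DNA, was at 1.101 FPKM in 3D hypoxia, 1.71 in 3D normoxia, 2.91 in 2D hypoxia and 3.10 in 2D normoxia (-0.75 ± 0.17, adjusted p = 0.0325). FANCL, the ubiquitin ligase subunit, was the exception, with 18.96 FPKM in 3D hypoxia, 21.5 in 3D normoxia, 22.5 in 2D hypoxia and 22.8 in 2D normoxia (-0.16 ± 0.12, adjusted p = 0.352). FANCA shares 22.4% of its exonic bases with ZNF276, and FANCL 26.7% with neighbouring genes including VRK2.

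BRIP1, the helicase that binds BRCA1 and is also called FANCJ, was at 1.43 FPKM in 3D hypoxia, 1.63 in 3D normoxia, 4.83 in 2D hypoxia and 3.39 in 2D normoxia. It fell in 3D by 0.999 ± 0.18 on the log2 scale (adjusted p = 0.021). Its highest value lay in 2D hypoxia rather than in 2D normoxia. BLM, the helicase that dissolves double Holliday junctions, was at 2.78 FPKM in 3D hypoxia, 3.597 in 3D normoxia, 8.13 in 2D hypoxia and 9.59 in 2D normoxia (-1.24 ± 0.12, adjusted p = 0.00856). MUS81 and EME1 together form a nuclease that cuts such junctions. EME1 was at 3.45 FPKM in 3D hypoxia, 3.61 in 3D normoxia, 6.16 in 2D hypoxia and 7.85 in 2D normoxia and fell in 3D by 0.81 ± 0.13 on the log2 scale (adjusted p = 0.0179). The catalytic partner MUS81, at 15.5 FPKM in 3D hypoxia, 14.7 in 3D normoxia, 20.1 in 2D hypoxia and 18.2 in 2D normoxia, did not pass (-0.32 ± 0.11, adjusted p = 0.0917). The FPKM of EME1 relative to MUS81 was 0.222 in 3D hypoxia, 0.246 in 3D normoxia, 0.307 in 2D hypoxia and 0.432 in 2D normoxia. EME1 rested on an estimated 92 fragments in 3D hypoxia and 99 in 3D normoxia, with the largest counting errors of the 33 genes. It shares 10.3% of its exonic bases with LRRC59.

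**Figure D3:**
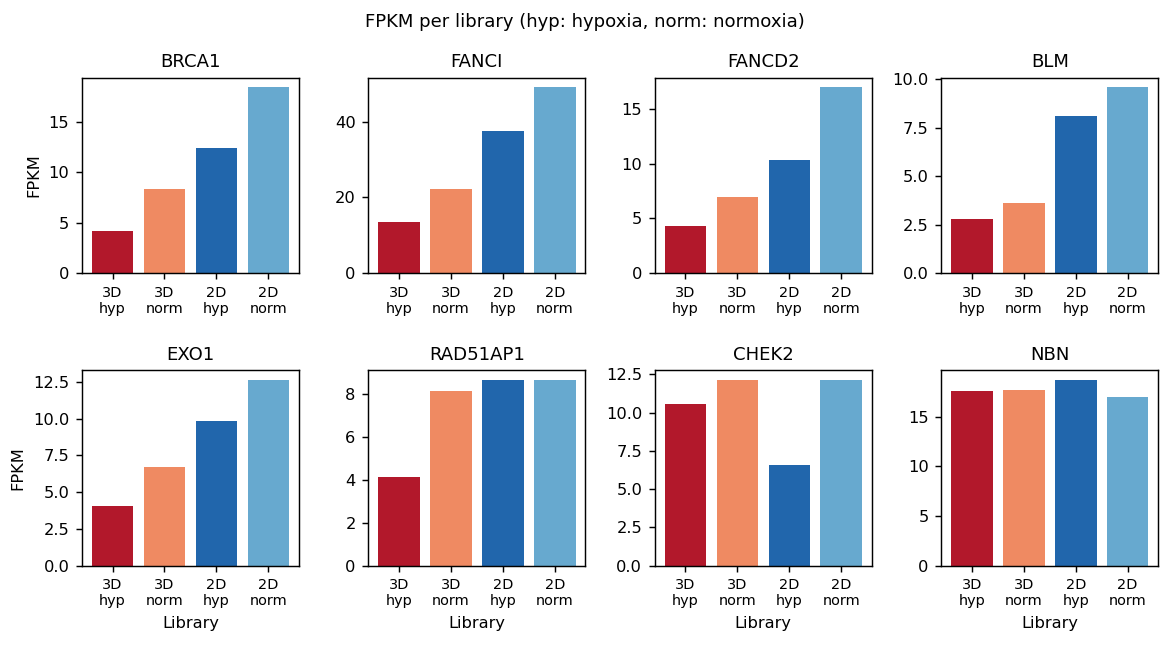
Bars give FPKM in each library for 8 of the genes, with a separate vertical axis from 0 for each gene. BRCA1, FANCI, FANCD2, BLM and EXO1 step up from 3D hypoxia to 2D normoxia, RAD51AP1 is low in 3D hypoxia alone at 4.10 FPKM, CHEK2 is low in 2D hypoxia alone at 6.58 FPKM, and NBN is level.

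Among the mismatch repair genes, MSH6, whose protein recognises base mismatches, was the highest of the 33 genes at 25.4 FPKM in 3D hypoxia, 27.8 in 3D normoxia, 43.3 in 2D hypoxia and 49.8 in 2D normoxia. It fell in 3D by 0.78 ± 0.11 on the log2 scale (adjusted p = 0.0135). MSH3, which competes for the same partner and recognises larger loops, was at 6.74 FPKM in 3D hypoxia, 7.47 in 3D normoxia, 7.20 in 2D hypoxia and 8.09 in 2D normoxia (-0.09 ± 0.12, adjusted p = 0.587). The FPKM of MSH6 relative to MSH3 was 3.76 in 3D hypoxia, 3.73 in 3D normoxia, 6.02 in 2D hypoxia and 6.16 in 2D normoxia, a ratio that parted by culture and little by oxygen. PMS2, a subunit of the nicking enzyme, was at 4.99 FPKM in 3D hypoxia, 5.92 in 3D normoxia, 7.23 in 2D hypoxia and 7.95 in 2D normoxia (-0.42 ± 0.12, adjusted p = 0.0584), and its many pseudogene copies make it uncertain. MSH6 shares 21.0% of its exonic bases with FBXO11.

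The damage-signalling genes had a median average culture difference of -0.37, against -0.999 for the Fanconi genes and -0.79 for the strand exchange genes. ATR, the kinase that answers exposed single-stranded DNA, was at 4.11 FPKM in 3D hypoxia, 5.98 in 3D normoxia, 9.01 in 2D hypoxia and 8.70 in 2D normoxia (-0.72 ± 0.16, adjusted p = 0.0305). TOPBP1, the activator of ATR, was at 10.8 FPKM in 3D hypoxia, 11.3 in 3D normoxia, 16.9 in 2D hypoxia and 19.1 in 2D normoxia (-0.66 ± 0.11, adjusted p = 0.0194). These 2 genes fell in 3D, while ATM and CHEK1 did not pass. ATM, the kinase that answers double-strand breaks, was at 5.12 FPKM in 3D hypoxia, 5.12 in 3D normoxia, 6.71 in 2D hypoxia and 7.09 in 2D normoxia (-0.37 ± 0.12, adjusted p = 0.0786). CHEK1, the effector of ATR, was at 8.19 FPKM in 3D hypoxia, 10.6 in 3D normoxia, 11.6 in 2D hypoxia and 12.8 in 2D normoxia (-0.36 ± 0.12, adjusted p = 0.0841).

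CHEK2, the effector of ATM, was at 10.6 FPKM in 3D hypoxia, 12.2 in 3D normoxia, 6.58 in 2D hypoxia and 12.1 in 2D normoxia. Only 2D hypoxia was low, and CHEK2 was the 1 gene of the 33 with a higher average in 3D (0.31 ± 0.17, adjusted p = 0.232). In hypoxia its log2 ratio of 3D to 2D was 0.61, with a counting error of 0.10, and in normoxia it was 0.00. CHEK2 has several near-identical pseudogene copies, so its values are uncertain. The FPKM of CHEK2 relative to ATM was 2.07 in 3D hypoxia, 2.37 in 3D normoxia, 0.9802 in 2D hypoxia and 1.71 in 2D normoxia.

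Within each oxygen level the culture difference had the same direction. In hypoxia, 21 of the 33 genes were at least 1.5-fold lower in 3D than in 2D (10.1% of all genes) and 1 was at least 1.5-fold higher (10.7% of all genes), with a median log2 ratio of -0.75. In normoxia, 16 of 33 were at least 1.5-fold lower in 3D (10.00% of all genes) and 0 were higher (8.79% of all genes), with a median of -0.56. The medians of all genes were -0.03 in both pairs. Both pairs rest on 1 library a side and have no replicate check. With each library rescaled to a sum of 1000000, the medians of all genes moved to -0.21 in hypoxia and -0.21 in normoxia, and those of the 33 genes, taken relative to them, were -0.74 and -0.57, against -0.72 and -0.53 before. The same rescaling turned the calls over all genes in normoxia into 647 at least 1.5-fold higher and 2545 lower, a share higher of 20.3% in place of 46.8%, and in hypoxia into a share of 27.3% in place of 51.5%, with 0 of the 33 genes at least 1.5-fold higher in 3D.

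Hypoxia, averaged over both cultures, gave smaller differences. Of the 33 genes, 2 fell and 0 rose (limma adjusted p under 0.05), where 1.64% of all genes were called lower and 3.20% higher, and 12 were lower at an unadjusted p under 0.05 (12.7% of all genes). The log2 difference was -0.70 ± 0.13 for BRCA1 (adjusted p = 0.0474) and -0.63 ± 0.12 for FANCD2 (adjusted p = 0.0459), and both genes fell. In all, 24 of the 33 genes were lower in hypoxia in both cultures, against 36.7% of all genes. Both calls lie close to the threshold and were lost when libraries were scaled to a common median (adjusted p = 0.0652 for BRCA1 and 0.0611 for FANCD2), without trend in limma (0.072 and 0.0696) and without the filter on low values (0.159 and 0.156). RAD54L (-0.51 ± 0.13, adjusted p = 0.0919), RAD51C (-0.50 ± 0.11, adjusted p = 0.0704) and FANCI (-0.53 ± 0.13, adjusted p = 0.0806) did not pass. The median of the 33 genes was -0.20, beside -0.01 for all genes, and after rescaling each library to a sum of 1000000 it was -0.34, beside -0.14 for all genes.

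In 3D, 7 of the 33 genes were at least 1.5-fold lower in hypoxia than in normoxia (4.59% of all genes) and 0 were higher (7.81% of all genes), with a median log2 ratio of -0.28 beside -0.02 for all genes. The 7 were BRCA1, RAD51AP1, FANCI, XRCC2, EXO1, DNA2 and FANCD2, with ratios between -0.85 and -0.59, and 0 reached 2-fold on the log2(FPKM + 1) scale. In 2D, 2 genes were at least 1.5-fold lower (5.43% of all genes), CHEK2 at -0.79 and FANCD2 at -0.66, and 0 were higher (5.91% of all genes), with a median of -0.16 beside -0.00 for all genes. Rescaling to a sum of 1000000 gave 12 genes at least 1.5-fold lower in 3D and 5 in 2D. Among all 12663 genes it gave 1207 lower in 3D, in place of 581, and 1312 in 2D, in place of 687. The medians of all genes were then -0.14 and -0.13. The share of higher calls among all genes fell to 40.04% in 3D, in place of 63.0%, and to 31.4% in 2D, in place of 52.1%.

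The cultures differed in the hypoxia ratio for several genes, although no test of that difference was possible with 1 library per group. The ratio was lower in 3D than in 2D for 25 of the 33 genes, against 51.8% of all genes, and the median difference was -0.14. RAD51AP1 had a difference of -0.85 with a counting error of 0.17, with ratios of -0.84 in 3D and 0.00 in 2D. BRIP1 had a difference of -0.52 (error 0.13), with ratios of -0.11 in 3D and 0.41 in 2D. ATR had a difference of -0.50 (error 0.09), with ratios of -0.45 in 3D and 0.05 in 2D. CHEK2 went the other way, at 0.61 with an error of 0.14, its ratio being -0.18 in 3D and -0.79 in 2D. Across the 33 genes the ratios in 3D and in 2D had a Pearson correlation of 0.49 and a Spearman correlation of 0.54, given as a description across genes of the same 4 libraries, and across all genes 0.44 and 0.58.

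**Figure D4:**
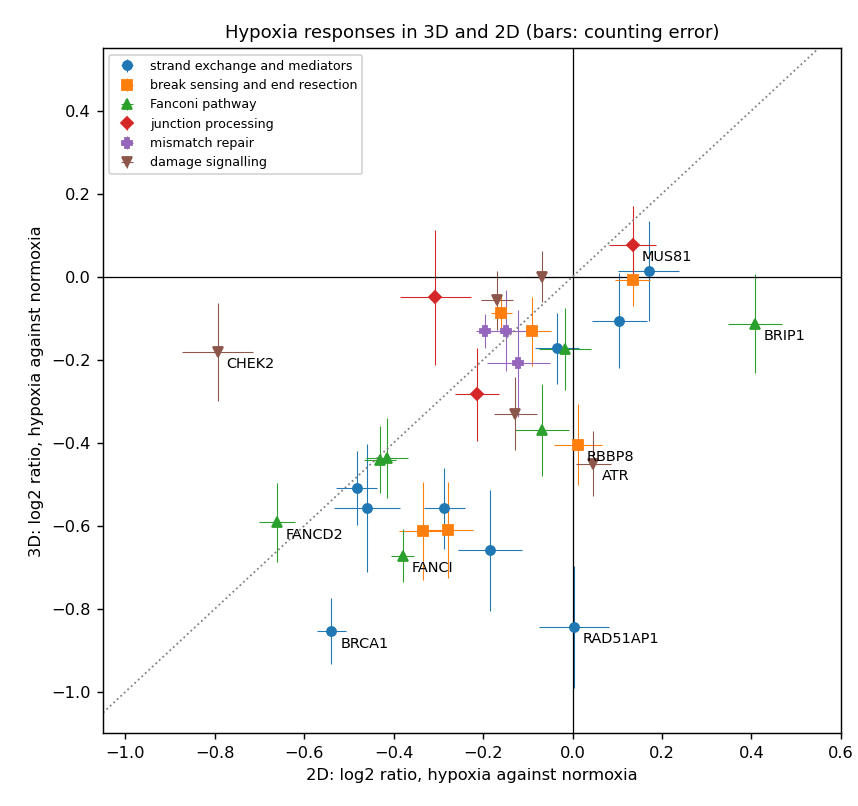
Each point is a gene, with its log2 ratio of hypoxia to normoxia in 3D on the vertical axis and in 2D on the horizontal axis, counting errors as bars, symbols by role and a dotted line where the cultures are equal. Most points lie below the line, RAD51AP1 lies far below it at -0.84 in 3D and 0.00 in 2D, and CHEK2 far above it at -0.18 in 3D and -0.79 in 2D.

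Other genes of these pathways, taken from lists compiled with earlier results of these data known, were called lower in 3D in differing shares, beside 11.6% of all genes called lower and 10.4% higher. Of 27 further recombination genes 12 fell and 1 rose in 3D by limma over all genes, of 14 further Fanconi genes 2 fell, of 6 further mismatch repair genes 3 fell, and of 22 further signalling genes 8 fell and 1 rose. The median average culture differences were -0.40 for recombination, -0.20 for Fanconi, -0.42 for mismatch repair and -0.36 for signalling genes, beside -0.03 for all genes, and the Fanconi count lies near the share over all genes. POLQ, the polymerase of microhomology-mediated joining, was at 1.85 FPKM in 3D hypoxia, 2.95 in 3D normoxia, 5.58 in 2D hypoxia and 7.31 in 2D normoxia (-1.14 ± 0.13, adjusted p = 0.0101). CLSPN and TIMELESS, which carry the ATR signal at replication forks, fell in 3D by 1.31 ± 0.14 and 1.19 ± 0.12 on the log2 scale. FANCB, a core complex gene, fell by 0.77 ± 0.16 and the DNA ligase LIG1 by 0.80 ± 0.11. Under hypoxia the helicase gene RECQL4 (-0.60 ± 0.12, limma adjusted p = 0.0496) and LIG1 (-0.66 ± 0.11, adjusted p = 0.04) fell among these 69 genes, where 1.64% of all genes were called lower. Both calls lie close to the threshold, and their values under other settings are not given here.

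End joining and excision repair are the other main routes of repair, and the same shares over all genes, 11.6% lower and 10.4% higher, apply to their counts. Of 8 measured end-joining genes 1 fell in 3D, PRKDC, the catalytic subunit of the DNA-dependent kinase, at 28.6 FPKM in 3D hypoxia, 35.2 in 3D normoxia, 68.0 in 2D hypoxia and 78.8 in 2D normoxia (-1.18 ± 0.12, adjusted p = 0.00846). Of 23 genes of base and nucleotide excision repair 6 fell and 1 rose. PARP2, which senses nicks, fell by 0.89 ± 0.13 on the log2 scale, and the glycosylase gene NTHL1 rose by 0.70 ± 0.16. The median average culture differences were -0.19 for end joining and -0.11 for excision repair, and the median average hypoxia differences were -0.20 for end joining and -0.15 for excision repair, beside -0.20 for the 33 genes.

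Proliferation genes were lower in 3D, as were the chosen strand exchange and Fanconi genes. The 14 further Fanconi genes differed less, with 2 called lower and a median log2 difference of -0.20. Of 20 G1/S genes 13 fell in 3D and 0 rose, with a median log2 difference of -0.67. Of 20 G2/M genes 18 fell and 0 rose, with a median of -0.96. The shares over all genes, 11.6% called lower and 10.4% higher, apply to these counts and to the count of E2F genes below. MKI67, a marker of cycling cells, was at 24.0 FPKM in 3D hypoxia, 32.3 in 3D normoxia, 78.1 in 2D hypoxia and 93.4 in 2D normoxia, and CENPF, a kinetochore gene, fell by 1.61 ± 0.12 on the log2 scale. Summed FPKM of the G1/S genes was 459.0 in 3D hypoxia, 709.4 in 3D normoxia, 802.97 in 2D hypoxia and 993.3 in 2D normoxia, and that of the G2/M genes was 445.2 in 3D hypoxia, 613.8 in 3D normoxia, 991.1 in 2D hypoxia and 1143 in 2D normoxia. E2F1, E2F2 and UNG were counted in more than 1 list. Of 19 genes for E2F factors and their partner complexes 6 fell, among them E2F1 (-0.73 ± 0.12, adjusted p = 0.0168) and E2F8 (-0.81 ± 0.15, adjusted p = 0.0217). The part of proliferation in the values of the repair genes was not tested, and fewer cycling cells and less RNA per cell cannot be told apart in such bulk libraries.

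**Figure D5:**
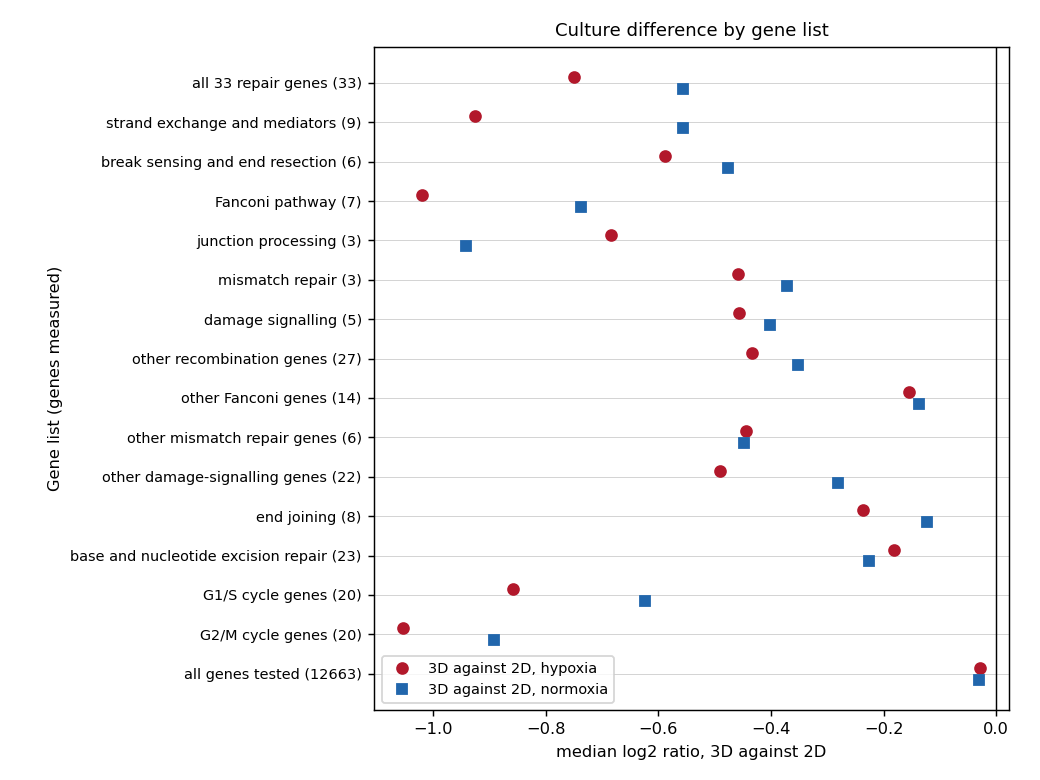
Points give the median log2 ratio of 3D to 2D for each gene list, circles in hypoxia and squares in normoxia, with the number of measured genes in brackets. The chosen Fanconi genes (-1.02 and -0.74), the chosen strand exchange genes (-0.93 and -0.56) and the cell cycle lists lie to the left. All genes together lie at -0.03. The medians of the 14 further Fanconi genes are -0.16 in hypoxia and -0.14 in normoxia.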

How the data were processed

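RNA was profiled in 4 libraries of A549 cells, 1 per group. Per the labels' protocols, a stranded mRNA kit was used on total RNA. The submitters' processing notes name Cuffdiff 2.2.1, SAMtools 0.1.18, Bowtie2 2.2.8 and TopHat2 2.1.1, and build hg19, and no annotation, library scaling or strand setting is given in the sources used here. Each deposited file holds the authors' FPKM, 1 value per symbol, which are not counts, so no count model was used.

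Values were taken as log2(FPKM + 1), which understates differences of low genes, for 12663 genes whose mean reached 1 FPKM. Pairs of libraries were described by size (at least 1.5-fold) with no test. Average effects were fitted with limma 3.58.1 in R 4.3.3 (culture and oxygen additive, trend, Benjamini-Hochberg over all genes, threshold 0.05), which was tested on simulated data. Depth was inferred from the commonest low FPKM times transcript length among 2134 single-transcript genes, and transcript lengths and exon overlaps came from GENCODE 29, a GRCh38 annotation that served for nothing else. Python 3.11.15 with pandas 2.3.3 did the rest. All 33 genes are named with their values, and from other lists at most 4 genes with the largest ratios, together with MKI67 and the genes of the label checks. The genes, role groups and lists were chosen with earlier results of these data known. Alternatives were library scaling, pseudocount, filter, fold size, trend and the exclusion of small RNA genes.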

Additional observations from a re-analysis of the deposited data

Results flagged for a closer look

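In 7 of the 33 genes the hypoxia ratio was of opposite sign in the 2 cultures, as it was in 28.7% of all genes. The difference was not tested, and in 0 of the 7 did both ratios lie outside the 95% interval of counting error around 0. RAD51AP1 had a log2 ratio of -0.843 in 3D and 0.00309 in 2D, ATR -0.450 in 3D and 0.0466 in 2D, and RBBP8 -0.405 in 3D and 0.0125 in 2D. BRIP1 had -0.114 in 3D and 0.408 in 2D, PALB2 -0.105 in 3D and 0.104 in 2D, NBN -0.00704 in 3D and 0.135 in 2D, and ATM 0.000507 in 3D and -0.0689 in 2D.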

How the results depend on the processing

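The median of the 33 genes stayed below 0 in the 4 pairs of libraries, the difference of the hypoxia ratios and both average effects under every setting run for them. Rescaling each library to a sum of 1000000 moved the medians to -0.43 for hypoxia in 3D, -0.29 for hypoxia in 2D, -0.78 for culture in normoxia and -0.95 for culture in hypoxia. It gave 12 genes at least 1.5-fold lower in 3D hypoxia and 5 in 2D hypoxia, where 1207 and 1312 of all 12663 genes were lower. At 2-fold the counts lower were 0 for hypoxia in 3D, 0 for hypoxia in 2D, 5 for culture in normoxia and 9 for culture in hypoxia. Among all 12663 genes they were 141, 201, 315 and 383, in the same order. For the average culture effect, 28 of the 33 fell after rescaling, 20 with a common median, 21 at a pseudocount of 0.1, 21 without trend, 24 after small RNA genes and those listed at 0 were left out, and 16 of the 27 left at a mean of at least 5 FPKM. Over all genes, 1472 were called lower in the main fit, 1114 with a common median, 1523 at a pseudocount of 0.1 and 1265 without trend. After the exclusion it was 1925 of 12550, and at a mean of 5 FPKM 1387 of 9159. With no filter on low values 0 of the 33 passed limma, with 26 lower at an unadjusted p under 0.05, and over all genes 2 were lower and 1 higher. Rescaling gave 3132 lower and 767 higher over all genes. For the average hypoxia effect, 5 of the 33 fell after rescaling (475 lower over all genes), 4 after the same exclusion (531 lower and 755 higher) and 3 at a mean of 5 FPKM (313 lower). By limma 0 of the 33 passed with a common median (12 at an unadjusted p under 0.05; 93 lower and 211 higher over all genes), without trend (12; 112 and 254) and without the filter (10; 0 and 5). The cause of these shifts was not tested, except that the unfiltered fit held 19356 genes. No paired analysis was possible because each group holds 1 library, and no library could be left out of a fit with 1 residual degree of freedom.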

Other observations

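In 3D against 2D, 1 of 27 further recombination genes, 1 of 22 further signalling genes and 1 of 23 excision repair genes, NTHL1, rose. Among all genes 10.4% were called higher. SFR1, which works with SWI5 in recombination, was at 9.30 FPKM in 3D hypoxia, 8.31 in 3D normoxia, 5.20 in 2D hypoxia and 5.70 in 2D normoxia (0.60 ± 0.13 on the log2 scale, limma adjusted p = 0.0293). FAM175A, the Abraxas scaffold that brings BRCA1 to ubiquitin at breaks, was at 7.82 FPKM in 3D hypoxia, 5.53 in 3D normoxia, 4.55 in 2D hypoxia and 3.43 in 2D normoxia (0.61 ± 0.13, adjusted p = 0.0267), the reverse order of the BRCA1 values. TP53BP1, which opposes resection, was at 9.51 FPKM in 3D hypoxia, 10.1 in 3D normoxia, 19.5 in 2D hypoxia and 21.3 in 2D normoxia and fell in 3D by 0.98 ± 0.11 on the log2 scale. DDB2, a damage sensor of nucleotide excision repair, was at 17.4 FPKM in 3D hypoxia, 26.4 in 3D normoxia, 42.3 in 2D hypoxia and 34.5 in 2D normoxia, so that it stood lower in hypoxia in 3D and higher in hypoxia in 2D.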
